A study of Mus musculus with 6 samples.

Results

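The antioxidant, glutathione and metallothionein genes are 41 genes of the cell's defence against peroxides, superoxide, reactive electrophiles and free metal ions. They were taken by name from the deposited table of 78409 genes, in which each name had a single row. Of the 41, 39 reached 1 CPM, a count scaled to a fixed library total, in at least 3 of the 6 libraries and were tested beside all 13717 genes that did so. The haem oxygenase gene Hmox1 and the cystine transporter gene Slc7a11 did not reach that level. The hearts came from 11-month-old mice. The first group was 3 hearts of mice with a cardiomyocyte-specific knockout of Ybx1 (Ybx1cmKO), and the second was 3 hearts of littermate controls. The labels do not give the Cre driver, the Ybx1 allele, the strain or the genotype of the controls beyond that name. Ybx1 encodes a cold-shock-domain protein that binds RNA and DNA.

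Superoxide leaking from the respiratory chain is turned into hydrogen peroxide by superoxide dismutases, and the peroxide is removed by catalase, by glutathione peroxidases and by peroxiredoxins. Glutathione and thioredoxin supply the electrons, and both are kept reduced at the cost of NADPH. The transcription factor NRF2, which KEAP1 marks for degradation until oxidants or electrophiles modify it, drives many of these genes through the antioxidant response element. Metallothioneins are small cysteine-rich proteins that bind zinc and copper, and their genes answer to the metal-sensing factor MTF1 through the metal response element and also to glucocorticoids.

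The total count was 13456753 to 15141525 in the knockout libraries and 12270796 to 14524785 in the control libraries. Ybx1 (ENSMUSG00000028639) checked the labels. It was at 203, 172 and 110.0 normalised CPM (TMM-scaled, as are all levels not called deposited) in knockout hearts 1, 2 and 3, against 851, 813 and 898 CPM in control hearts 1, 2 and 3. Its knockout mean was 18.9% of the control mean, with an exact two-sided permutation p of 0.1, below which 6 hearts in 2 groups of 3 cannot go. Its log2 fold change was -2.40 (SE 0.27), with an edgeR adjusted p of 0.148. The whole hearts held cardiomyocyte transcripts throughout. The 10 ventricular cardiomyocyte markers summed to 25657 to 33774 CPM in knockout and 30409 to 36142 CPM in control hearts. Of the 10, 5 had a log2 fold change above 0, and the median was -0.08. The groups did not overlap for 3 of them, Ryr2, Myh6 and Ttn, where 12.1% of all tested genes had no overlap. Knockout heart 3 stood apart in composition. Mitochondrial rRNA made up 10.7% of its counts, against 20.5% to 26.3% in the other 5 libraries, and the nuclear RNA Malat1 was at 668 deposited CPM, against 3317 to 7923 CPM. Knockout heart 3 and control heart 1 expressed Xist (201 and 387 deposited CPM, against at most 2.79 CPM in the other 4). Results that rest on knockout heart 3 are given with and without it.

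No member passed edgeR's quasi-likelihood test after Benjamini-Hochberg adjustment over all genes (smallest adjusted p = 0.694). The share of all tested genes that passed was 0%. DESeq2 called 15 genes (0.109%), none of them a member. At an unadjusted p below 0.05, 6 of the 39 tested members lay higher in the knockout hearts and 0 lower, where 5.14% of all tested genes passed, 2.69% higher and 2.45% lower. The 6 were Gpx1, Gpx4, Cat, Gclm, Mgst1 and Mt2. Single libraries moved this count. It was 0 without control heart 1, 1 without control heart 2 and 11 without knockout heart 1. Of all tested genes 2.80%, 1.46% and 12.7% passed in these fits. It was 5 without knockout heart 2, Keap1 lying lower, and 6 without control heart 3, where 6.45% and 5.19% of all tested genes passed. Without knockout heart 3 it was also 6, with Gpx3 in place of Mgst1, where 3.86% of all tested genes passed. All 3 knockout hearts lay above all 3 controls for 7 members, Gpx1, Gpx4, Cat, Sod1, Gclm, G6pdx and Nfe2l1, where 6.26% of all tested genes did so. All 3 lay below for 1 member, Keap1, where 5.82% of all tested genes did so. Together these 8 of 39 stood beside 12.1% of all tested genes.

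The log2 fold change of knockout over control was above 0 for 31 of the 39 tested members, with a median of 0.33. It was at least 0.5 for 12 of them, where it was so for 8.65% of all tested genes. Without knockout heart 3 that count was 3 (Cat, Gpx4 and Mt2), where 3.46% of all tested genes reached 0.5, and without control heart 2 it was 7, where 5.28% did. Over all tested genes the fold change was above 0 for 51.1%, with a median of 0.01. Without knockout heart 3 the count above 0 was again 31 of 39, beside 48.5% of all genes, while the median of the tested members was 0.14. Without control heart 2 the median was 0.19. Scaled by library totals alone, which moves the median of all genes to 0.17, 36 of 39 lay above 0, beside 67.1% of all genes. The 5 members whose sign turned under that scaling, and in limma-trend, were Nfe2l2, Fth1, Prdx5, Gstm1 and Sod3, all within 0.1 of 0 with TMM scaling. Members that lay above 0 with TMM scaling did so under every scaling tried.

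**Figure D1:**
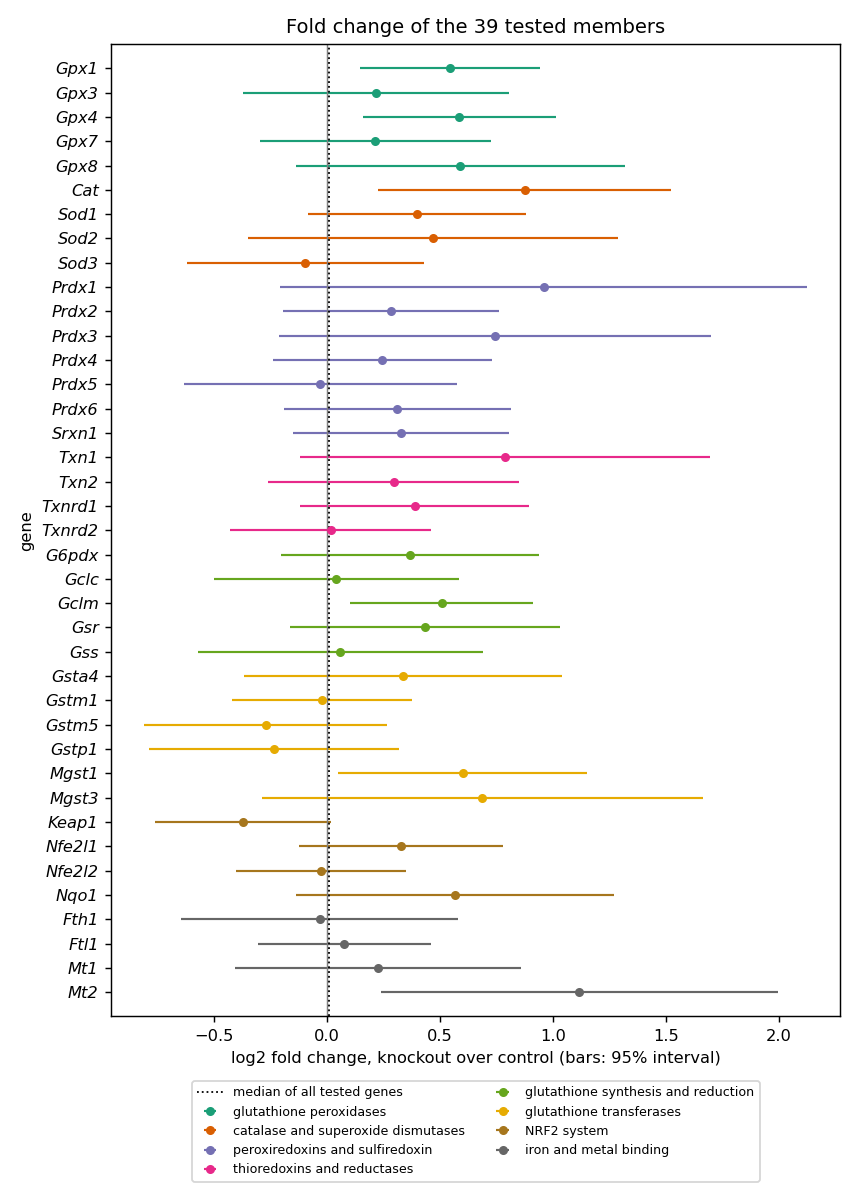
Log2 fold change of knockout over control (horizontal axis) for the 39 tested members (rows, coloured by role), with 95% confidence intervals from edgeR's quasi-likelihood fit. The dotted line is the median of all 13717 tested genes at 0.01, and the intervals of Gpx1, Gpx4, Cat, Gclm, Mgst1 and Mt2 lie above 0.

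The glutathione peroxidases, which reduce hydrogen peroxide and lipid peroxides with glutathione, were the group with the highest median (0.55, and 0.45 without knockout heart 3). All 5 lay above 0. Gpx1 (ENSMUSG00000063856), the cytosolic and mitochondrial enzyme, was at 49.8, 58.0 and 61.3 CPM in knockout hearts 1, 2 and 3, against 38.9, 35.6 and 41.3 CPM in controls 1, 2 and 3. Every knockout value lay above every control value. Its log2 fold change was 0.55 (SE 0.17, 95% interval 0.15 to 0.94, edgeR adjusted p = 0.694), and leaving out any single library kept it between 0.48 and 0.63. Gpx4 (ENSMUSG00000075706), the peroxidase that acts on lipid hydroperoxides in membranes and whose loss opens the way to ferroptosis, was at 305, 363 and 321 CPM in the knockout hearts, against 218, 202 and 239 CPM in the controls. The groups again did not overlap. Its log2 fold change was 0.59 (SE 0.19, interval 0.16 to 1.01, edgeR adjusted p = 0.694), and 0.50 to 0.65 with any library left out. Knockout heart 3 lay near the other knockout hearts: the level of Gpx4 in it differed from the mean of knockout hearts 1 and 2 by -0.05 and that of Gpx1 by 0.19 (log2).

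In the other glutathione peroxidases the groups overlapped. Gpx3, the secreted plasma peroxidase, was at 175, 145 and 87.5 CPM in knockout hearts, against 119, 114 and 116 CPM in controls. Knockout hearts 1 and 2 lay above and knockout heart 3 below all controls, so that its log2 fold change was 0.22 with all libraries and 0.45 without knockout heart 3. The controls of Gpx3 were the tightest of the tested members, with a coefficient of variation of 2.28%, against 32.6% in the knockout hearts. Gpx7 and Gpx8 act in the endoplasmic reticulum. Gpx7 was at 5.199 ± 0.644 CPM in knockout hearts, against 4.47 ± 0.731 CPM in controls (SD, n = 3 each; log2 fold change 0.22, and 0.11 without knockout heart 3). Gpx8 was at 7.68, 8.72 and 16.3 CPM in knockout hearts, against 6.79, 5.73 and 9.15 CPM in controls, so that knockout heart 3 alone lay above the controls (0.59, and 0.17 without it).

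**Figure D2:**
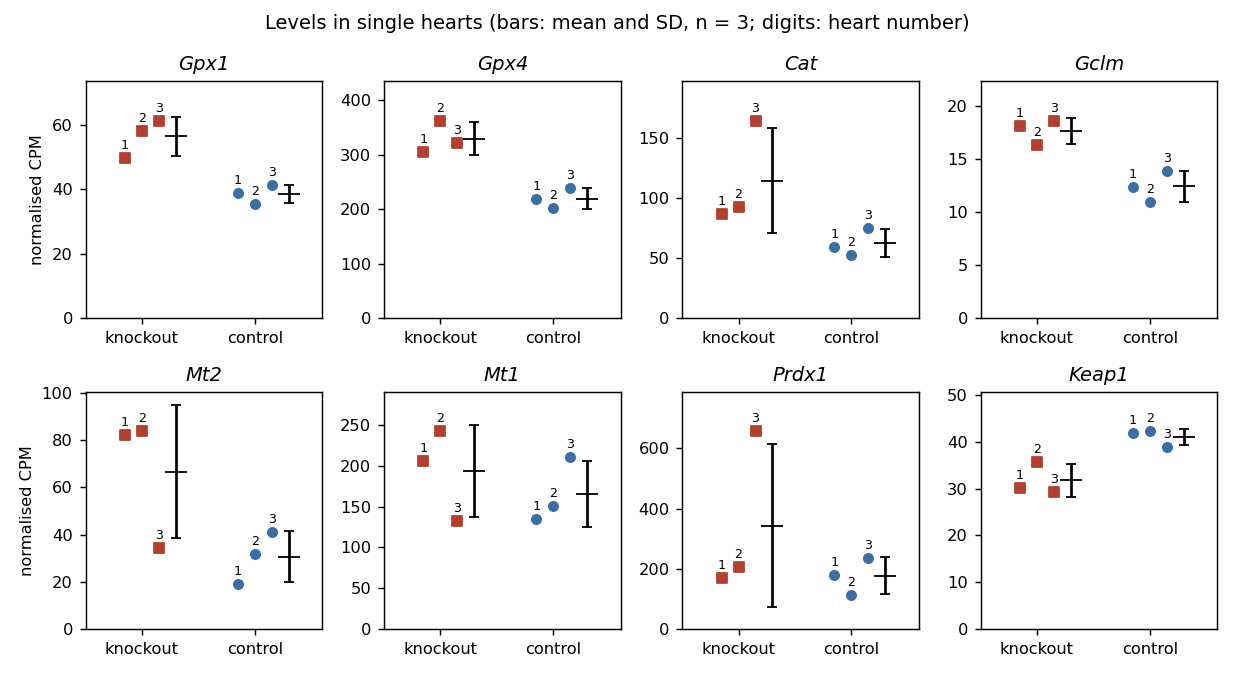
Normalised CPM (vertical axes, from 0) of 8 members in single hearts, knockout as red squares and control as blue circles, with the heart number above each point and the mean and SD of each group (n = 3) beside it. Gpx1, Gpx4, Cat and Gclm are higher in all 3 knockout hearts, Mt2 and Mt1 are lower in knockout heart 3 than in the other 2 knockout hearts, Prdx1 is high in knockout heart 3 alone, and Keap1 is lower in all 3 knockout hearts.

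Catalase, Cat (ENSMUSG00000027187), which breaks down hydrogen peroxide in peroxisomes and needs no electron donor, was at 86.2, 92.4 and 164 CPM in knockout hearts, against 58.9, 52.5 and 75.3 CPM in controls. All 3 knockout hearts lay above the controls, with knockout heart 3 far above the other 2. The log2 fold change was 0.88 (SE 0.28, interval 0.23 to 1.52, edgeR adjusted p = 0.694), and 0.52 without knockout heart 3. Sod1, the cytosolic copper-zinc superoxide dismutase, was at 154, 158 and 183 CPM in knockout hearts, against 143, 96.5 and 135 CPM in controls. Its groups did not overlap after TMM scaling but did in the deposited CPM. The log2 fold change of 0.40 was 0.32 without knockout heart 3 and 0.23 without control heart 2. The manganese enzyme of mitochondria, Sod2, was at 145, 217 and 372 CPM in knockout hearts, against 171, 129 and 231 CPM in controls, so that knockout heart 3 alone lay above the controls (log2 fold change 0.47, and 0.03 without it). Sod3, the extracellular enzyme, was at 9.65 ± 0.688 CPM in knockout and 10.3 ± 2.78 CPM in control hearts (SD, n = 3 each).

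Red blood cells carry much catalase, GPX1 and PRDX2 protein. The 6 red cell markers summed to 6872, 3570 and 4174 CPM in knockout hearts and to 4124, 4725 and 3048 CPM in controls, ranges that overlap, with knockout heart 1 the highest. All 6 markers had a log2 fold change above 0, with a median of 0.38. Cat was higher in knockout hearts 2 and 3 than in knockout heart 1, and so was Gpx1. The part of red cells in these levels was not tested. In whole hearts a change in the number of cells of a type and a change in RNA per cell cannot be told apart.

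The peroxiredoxins, thiol peroxidases most of which thioredoxin recharges, had a median of 0.31 over the 7 genes of the group with sulfiredoxin, and of 0.14 without knockout heart 3. In all 7 knockout heart 3 was the highest of the 6 libraries. Prdx1, the abundant cytosolic member, was at 169, 205 and 657 CPM in knockout hearts, against 179.6, 113 and 237 CPM in controls. Knockout hearts 1 and 2 lay within the control range, and the log2 fold change was 0.96 with all libraries and 0.08 without knockout heart 3. Prdx3, the mitochondrial member, was at 42.5, 70.1 and 145 CPM in knockout hearts, against 48.5, 37.6 and 67.3 CPM in controls (log2 fold change 0.74, and 0.14 without knockout heart 3). Prdx2, Prdx4 and Prdx6 had log2 fold changes of 0.28, 0.25 and 0.31, and of 0.13, 0.19 and 0.19 without knockout heart 3. Prdx5, found in mitochondria and peroxisomes, had one of -0.03, and -0.24 without knockout heart 3. Srxn1, sulfiredoxin, repairs over-oxidised peroxiredoxins and is a known NRF2 target. It was at 7.75, 5.84 and 7.95 CPM in knockout hearts, against 5.10, 5.91 and 6.17 CPM in controls. Its log2 fold change was 0.33, and 0.25 without knockout heart 3.

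Of the thioredoxins, Txn1 was highest in knockout heart 3, with knockout heart 2 just above the controls and knockout heart 1 within their range. Txn1, the cytosolic thioredoxin, was at 21.9, 27.5 and 66.6 CPM in knockout hearts, against 23.9, 17.5 and 25.9 CPM in controls (log2 fold change 0.79, and 0.14 without knockout heart 3). Txn2, its mitochondrial partner, was at 64.7, 93.8 and 102 CPM in knockout hearts, against 67.6, 56.8 and 87.6 CPM in controls (0.30, and 0.16 without knockout heart 3), with knockout heart 1 inside the control range and the other 2 above it. The reductases are selenoproteins that pass electrons from NADPH to the thioredoxins. The cytosolic Txnrd1 was at 18.3, 17.6 and 25.0 CPM in knockout hearts, against 17.8, 12.2 and 16.5 CPM in controls (log2 fold change 0.39, and 0.21 without knockout heart 3). The mitochondrial Txnrd2 was at 22.6, 28.5 and 19.7 CPM in knockout hearts, against 22.1, 25.0 and 22.8 CPM in controls (0.02, and 0.13 without knockout heart 3).

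In glutathione synthesis the 2 subunits of glutamate-cysteine ligase, the rate-limiting enzyme, gave different values. Gclm (ENSMUSG00000028124), the modifier subunit, was at 18.1, 16.3 and 18.6 CPM in knockout hearts, against 12.4, 11.0 and 13.9 CPM in controls. The groups did not overlap, and the 3 knockout hearts lay close together (coefficient of variation 6.85%). Its log2 fold change was 0.51 (SE 0.18, interval 0.10 to 0.91, edgeR adjusted p = 0.694), and 0.42 to 0.60 with any library left out. Gclc, the catalytic subunit, was at 10.3, 7.21 and 6.50 CPM in knockout hearts, against 8.01, 8.87 and 6.50 CPM in controls (log2 fold change 0.04, interval -0.50 to 0.59, and 0.18 without knockout heart 3). The difference between the subunits' fold changes was not tested.

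Of the other genes of glutathione supply, G6pdx, the enzyme that feeds NADPH from the pentose phosphate pathway, was at 2.58, 2.81 and 2.56 CPM in knockout hearts, against 2.02, 1.85 and 2.26 CPM in controls. Its groups did not overlap (log2 fold change 0.37, interval -0.20 to 0.94). Gsr, glutathione reductase, was at 14.4, 13.3 and 24.1 CPM in knockout hearts, against 13.4, 10.6 and 14.3 CPM in controls (0.43, and 0.11 without knockout heart 3). Gss, glutathione synthetase, was at 2.87 ± 0.611 CPM in knockout and 2.75 ± 0.417 CPM in control hearts (SD, n = 3 each; 0.06, and 0.24 without knockout heart 3). The transporter gene Slc7a11, which imports cystine, had 2, 1 and 0 counts in knockout hearts, against 1, 0 and 0 in controls, too few to compare.

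The glutathione transferases, which join glutathione to electrophiles, went both ways. Of 6 tested genes 3 lay above and 3 below 0. Mgst1 (ENSMUSG00000008540), a membrane-bound transferase and peroxidase, was at 27.4, 21.6 and 35.0 CPM in knockout hearts, against 15.9, 16.3 and 23.2 CPM in controls. Knockout heart 2 lay below control heart 3, the overlap of the groups (log2 fold change 0.60, SE 0.24, interval 0.05 to 1.15, edgeR adjusted p = 0.694, and 0.41 without knockout heart 3). Mgst3, a related membrane enzyme, was at 191, 299.7 and 649 CPM in knockout hearts, against 238, 169 and 300.2 CPM in controls (0.69, and 0.06 without knockout heart 3). Gsta4, which takes up the lipid peroxidation product 4-hydroxynonenal, was at 20.3 ± 6.83 CPM in knockout and 15.98 ± 5.38 CPM in control hearts (SD, n = 3 each; log2 fold change 0.34, and 0.05 without knockout heart 3). The cytosolic Gstm5 and Gstp1 had log2 fold changes of -0.27 and -0.23, and of -0.46 and -0.39 without knockout heart 3, and Gstm1 of -0.02, with knockout hearts at 35.9, 36.3 and 36.0 CPM and controls at 38.4, 31.1 and 40.3 CPM.

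The NRF2 system itself gave opposite signs for its parts. Keap1 (ENSMUSG00000003308), the adaptor that holds NRF2 down, was at 30.2, 35.8 and 29.4 CPM in knockout hearts, against 41.9, 42.3 and 39.004 CPM in controls. All knockout values lay below all control values after TMM scaling; in the deposited CPM the groups overlapped. Its log2 fold change was -0.37 (SE 0.17, interval -0.76 to 0.02, edgeR adjusted p = 0.694), and -0.48 to -0.32 with any library left out. Nfe2l2, which encodes NRF2 and is controlled mainly at the protein level, was at 39.8, 44.5 and 45.1 CPM in knockout hearts, against 46.8, 42.7 and 42.3 CPM in controls (log2 fold change -0.03, interval -0.40 to 0.35, and -0.06 without knockout heart 3). Nfe2l1, the related factor NRF1 that drives proteasome genes, was at 221, 227 and 275 CPM in knockout hearts, against 189.5, 169 and 217 CPM in controls. Its groups did not overlap after TMM scaling but did in the deposited CPM (0.33, interval -0.12 to 0.78, and 0.22 without knockout heart 3). Nqo1, a quinone reductase often read as an NRF2 target, was at 32.5, 31.5 and 65.2 CPM in knockout hearts, against 30.4, 23.1 and 33.7 CPM in controls (0.57, and 0.14 without knockout heart 3). Hmox1, inducible haem oxygenase, had 7, 7 and 12 counts in knockout hearts, against 2, 7 and 14 in controls.

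Promoter sequence was looked at for the antioxidant response element core TGACNNNGC and the metal response element core TGCACNC or TGCGCNC, on both strands, in the 250 bases before each RefSeq start on GRCm38.p6. The reference held windows for 35 of the 41 genes, 47 windows in all. The antioxidant core occurred in 9 of the 47 windows (19.1%), where 10.2% of all 32851 windows held it, and the metal core in 12 (25.5%), where 21.4% did. Of the 7 genes with all knockout hearts above all controls, Gclm, Sod1 and G6pdx held the antioxidant core and Gpx1, Gpx4, Cat and Nfe2l1 did not. A match is a run of letters and not a measured binding site. The windows of these 3 genes are shown because they carry the core, and those of Mt2 and Mt1 because the pair varied together between hearts. Each runs 5′ to 3′ along the strand of its gene, and capitals mark the matches. In Gclm the antioxidant core overlaps a metal core, and in G6pdx 2 metal cores overlap each other. Positions are chr3:122245307-122245556 on the plus strand for Gclm, chr16:90220512-90220761 on the plus strand for Sod1, chrX:74428881-74429130 on the minus strand for G6pdx, chr8:94172368-94172617 on the plus strand for Mt2 and chr8:94178839-94179088 on the plus strand for Mt1.
Gclm: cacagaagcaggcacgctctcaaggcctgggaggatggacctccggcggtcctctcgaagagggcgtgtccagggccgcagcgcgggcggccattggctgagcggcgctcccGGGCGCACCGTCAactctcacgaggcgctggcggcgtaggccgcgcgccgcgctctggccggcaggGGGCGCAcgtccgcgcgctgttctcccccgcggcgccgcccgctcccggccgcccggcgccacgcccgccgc
Sod1: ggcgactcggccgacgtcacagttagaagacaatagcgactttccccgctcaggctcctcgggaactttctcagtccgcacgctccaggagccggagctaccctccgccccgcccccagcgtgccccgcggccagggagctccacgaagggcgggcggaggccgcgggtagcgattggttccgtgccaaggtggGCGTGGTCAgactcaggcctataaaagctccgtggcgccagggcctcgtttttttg
G6pdx: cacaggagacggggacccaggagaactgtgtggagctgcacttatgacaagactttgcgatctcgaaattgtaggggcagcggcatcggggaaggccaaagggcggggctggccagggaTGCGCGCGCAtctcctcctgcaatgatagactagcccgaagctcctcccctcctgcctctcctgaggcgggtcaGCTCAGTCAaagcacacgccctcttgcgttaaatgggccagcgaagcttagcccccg
Mt2: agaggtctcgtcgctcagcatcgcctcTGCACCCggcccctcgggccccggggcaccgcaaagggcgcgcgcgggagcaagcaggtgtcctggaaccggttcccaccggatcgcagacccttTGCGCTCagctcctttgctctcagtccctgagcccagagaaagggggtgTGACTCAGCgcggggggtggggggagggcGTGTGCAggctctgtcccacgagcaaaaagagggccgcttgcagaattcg
Mt1: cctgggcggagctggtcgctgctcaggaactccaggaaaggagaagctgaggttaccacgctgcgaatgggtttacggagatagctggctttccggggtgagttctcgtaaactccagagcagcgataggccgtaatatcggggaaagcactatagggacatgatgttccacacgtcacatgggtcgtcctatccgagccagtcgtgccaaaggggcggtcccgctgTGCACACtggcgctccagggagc

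The Mt2 window held 3 metal cores and 1 antioxidant core, and the Mt1 window 1 metal core. Elements outside the 250 bases were not counted, so these numbers do not describe the whole promoters. Mt2 (ENSMUSG00000031762) had the highest log2 fold change of the tested members. It was at 82.1, 83.7 and 34.1 CPM in knockout hearts 1, 2 and 3, against 19.2, 31.8 and 40.99 CPM in controls. Knockout hearts 1 and 2 lay well above every control, and knockout heart 3 lay within the control range. The log2 fold change was 1.12 (SE 0.39, interval 0.24 to 2.00, edgeR adjusted p = 0.694), 1.43 without knockout heart 3 and 0.86 without control heart 1. Mt1 was at 206, 242 and 132 CPM in knockout hearts, against 134, 150.1 and 211 CPM in controls (log2 fold change 0.23, interval -0.40 to 0.86, 0.44 without knockout heart 3 and 0.02 without knockout heart 2). In both genes knockout heart 3 was the lowest knockout heart and control heart 3 the highest control.

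The ferritins, which store iron, showed no separation. The heavy chain gene Fth1 was at 885, 1009 and 1483 CPM in knockout hearts, against 1137, 934 and 1377 CPM in controls (log2 fold change -0.03, and -0.28 without knockout heart 3). The light chain gene Ftl1 was at 27.6 ± 2.43 CPM in knockout and 26.2 ± 1.21 CPM in control hearts (SD, n = 3 each; 0.08, and 0.01 without knockout heart 3). Both held a fraction of a read in all 6 libraries, as did Prdx1 and Gstp1, while Gpx4, Sod2 and Gclm did so in 5. Counts of these genes may hold reads shared with other rows, and their levels are uncertain to that extent. Gpx4-ps2, a processed pseudogene, was at 2.38, 3.56 and 4.23 CPM in knockout hearts, against 1.78, 1.66 and 2.12 CPM in controls. Gstp-ps was at 9.04, 14.7 and 15.5 CPM in knockout hearts, against 17.1, 12.8 and 18.4 CPM in controls.

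**Figure D3:**
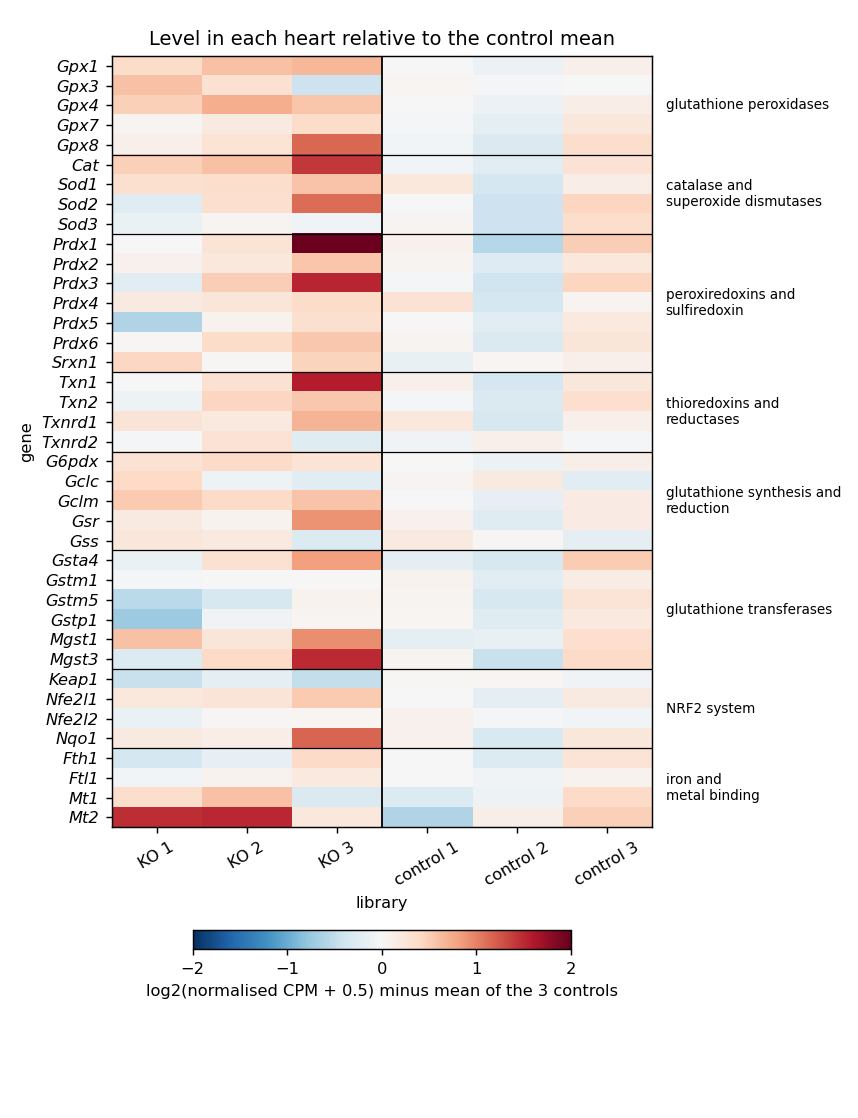
Level of the 39 tested members (rows, grouped by role) in each library (columns, knockout left of control) as log2(normalised CPM + 0.5) minus the mean of the 3 controls. Knockout heart 3 is the highest library in 25 rows, control heart 2 the lowest in 25, and Mt1 and Mt2 are lower in knockout heart 3 than in the other 2 knockout hearts.

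Seen heart by heart, the genes followed several patterns. In 7 genes all knockout hearts lay above the controls. In 11, among them Prdx1, Sod2, Mgst3, Nqo1 and Gpx8, knockout heart 3 alone did so, where 16% of all tested genes did. In 3, Gpx3, Gss and Mt2, knockout hearts 1 and 2 did and knockout heart 3 did not, where 2.84% of all tested genes did. In 6, Keap1, Nfe2l2, Sod3, Gstm1, Gstm5 and Gstp1, no knockout heart lay above all controls, where 42.8% of all tested genes had none. Knockout heart 3 was the highest of the 6 libraries in 25 of 39 members, against 33.9% of all tested genes, and control heart 2 was the lowest in 25, against 25.2%. Relative to the control mean the median member stood at 0.08, 0.25 and 0.53 in knockout hearts 1, 2 and 3, where the median of all tested genes stood within 0.01 of 0 in each.

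**Figure D4:**
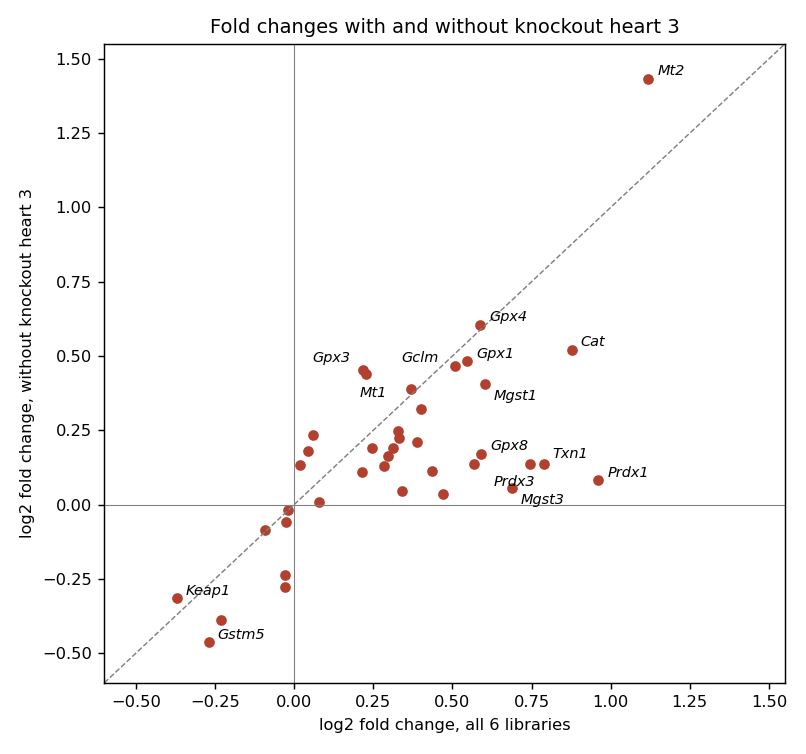
Log2 fold change of knockout over control with all 6 libraries (horizontal) and without knockout heart 3 (vertical) for the 39 tested members, with the line of equality dashed. Gpx4, Gpx1 and Gclm lie near the line, Mt2 and Gpx3 above it, and Prdx1, Txn1, Prdx3 and Mgst3 drop to between 0.06 and 0.14.

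Short transcripts were relatively high in knockout heart 3. The longest protein-coding transcript of the members in GENCODE M21 had a median of 1553 bases, against 3239 bases over 11499 tested protein-coding genes with a length (99.2% of them). Among all such genes of at most 1809 bases, the shortest of 5 equal bins, the level in knockout heart 3 exceeded the mean of knockout hearts 1 and 2 by a median of 0.32 (log2), and in the longest bin it lay at -0.19. In that shortest bin 70.4% of all genes had a knockout over control fold change above 0, beside 17 of the 22 members in it. Without knockout heart 3 the same bin held 56.6% of all genes above 0, again beside 17 of 22. Within the 39 members length and the excess in knockout heart 3 had a Pearson r of 0.05 on log2 length, against -0.30 over all 11499 genes, each across genes, which share the same 3 libraries. The part of transcript length in the members' fold changes was not tested.

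**Figure D5:**
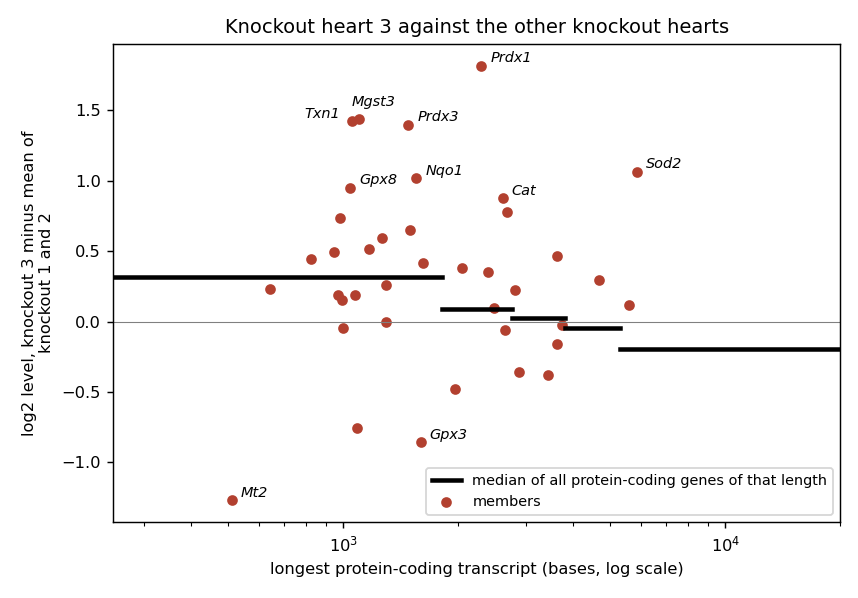
Log2 level in knockout heart 3 minus the mean of knockout hearts 1 and 2 (vertical) against the longest protein-coding transcript of each member (horizontal, log scale). Black bars are the medians of all tested protein-coding genes in 5 equal length bins, 0.32 in the shortest and -0.19 in the longest; Prdx1, Mgst3, Txn1 and Prdx3 lie far above the bars, and Mt2 and Gpx3 below them.

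Beyond the members, 114 of 129 further genes of these pathways were tested and 0 passed edgeR's adjusted threshold, with 80 above and 34 below 0 and a median of 0.17 (0.07 without knockout heart 3). At an unadjusted p below 0.05, 4 lay higher and 1 lower, where 2.69% and 2.45% of all tested genes did so. The lower was Bach1, the repressor that competes with NRF2 for antioxidant elements, at 11.9, 13.6 and 11.6 CPM in knockout hearts, against 16.5, 19.0 and 15.9 CPM in controls (log2 fold change -0.47, interval -0.87 to -0.07). The higher ones were Ucp2, an uncoupling protein of the inner mitochondrial membrane, Glrx, glutaredoxin, and the selenoprotein genes Selenok and Selenop. Ucp2 was at 8.29, 9.25 and 11.6 CPM in knockout hearts, against 6.15, 6.37 and 6.10 CPM in controls. Its log2 fold change was 0.65 (interval 0.19 to 1.10), and 0.50 without knockout heart 3. Glrx was at 7.07, 9.41 and 13.6 CPM in knockout hearts, against 6.71, 3.88 and 6.63 CPM in controls (0.80, and 0.51 without knockout heart 3). In both genes all knockout hearts lay above all controls. Selenok was at 32.1, 30.3 and 72.3 CPM in knockout hearts, against 24.2, 19.7 and 27.1 CPM in controls (0.92, and 0.40 without knockout heart 3). Selenop, which carries selenium between tissues, was at 114, 83.4 and 134 CPM in knockout hearts, against 77.3, 62.5 and 84.0 CPM in controls. Its log2 fold change was 0.57, and 0.40 without knockout heart 3.

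By list, 17 of 18 thioredoxin-fold and sulfoxide reductase genes lay above 0, with a median of 0.35, and 12 of 18 without knockout heart 3, with a median of 0.13. Of 26 other glutathione genes 18 lay above 0 (median 0.21, and -0.02 without knockout heart 3). Of 24 other NRF2 regulators and targets 15 did (0.14, and 0.10 without it), of 15 genes of iron and metal handling 13 (0.17, and 0.11) and of 12 sources of superoxide and peroxide 7 (0.05, and 0.10). Of 19 genes of selenoproteins and selenium use 10 did (0.08, and -0.04). The groups did not overlap in 13 further genes that lay higher in knockout and 1 that lay lower, of 114 tested, where 6.26% and 5.82% of all tested genes did so. Besides Ucp2, Glrx and Selenok, the higher ones were Sqstm1, Pgd, Gstm4, Maoa, Ncoa4, Nox4, Pir, Selenom, Sephs2 and Txnl1. The genes from Sqstm1 to Txnl1 had an unadjusted edgeR p above 0.05. Sqstm1, the autophagy adaptor that binds KEAP1, was at 139.8, 162 and 149 CPM in knockout hearts, against 106, 109.6 and 130.1 CPM in controls. Its log2 fold change was 0.38 (interval -0.03 to 0.80). Pgd, the next NADPH enzyme after G6PDX, was at 12.03, 10.5 and 10.3 CPM in knockout hearts, against 7.93, 7.58 and 9.22 CPM in controls. Its log2 fold change was 0.40 (interval -0.01 to 0.82).

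Selenocysteine, the amino acid at the active site of the enzymes, is shared by 5 members, Gpx1, Gpx3, Gpx4, Txnrd1 and Txnrd2, which the annotation marks for it. Of the 24 genes so marked in GENCODE M21, 20 were tested, and 17 had a log2 fold change above 0 (median 0.37, and 15 above 0 with a median of 0.21 without knockout heart 3). The 15 that are not members had a median of 0.35, with 12 above 0, and of 0.18, with 10 above 0, without knockout heart 3. All 5 members lay above 0 with or without knockout heart 3, Txnrd2 at 0.02 and 0.13.

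Markers of other cell types gave the following sums. All 7 macrophage markers lay above 0, and they summed to 128 to 195 CPM in knockout and 91.2 to 129 CPM in control hearts. All 8 fibroblast markers lay above 0, with sums of 1758 to 2349 CPM in knockout and 1449 to 1821 CPM in control hearts. In both lists knockout heart 3 was the highest library. The 7 endothelial markers, 4 of them above 0, summed to 1299 to 2403 CPM in knockout and 1601 to 2013 CPM in control hearts. Of the 6 smooth muscle and pericyte markers 1 lay above 0, with sums of 410.2 to 703 CPM in knockout and 515 to 641 CPM in control hearts. The 4 neutrophil markers, of which Mpo was at 0 in all libraries, summed to 5.004 to 10.8 CPM in knockout and 2.12 to 4.71 CPM in control hearts. Of these 2 were tested and 2 lay above 0. In these lists the groups did not overlap for C1qa, Pecam1, S100a8 and S100a9, where 12.1% of all tested genes had no overlap. The 4 adipocyte markers and the 3 hepatocyte markers summed to at most 1.39 and 0.68 CPM in any heart. The part of other cell types in the members' levels was not tested.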

How the data were processed

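Total RNA of 6 hearts was taken up in TRIzol, cDNA was primed with oligo(dT) and libraries were tagmented, per the labels' protocols. Per the submitters' processing notes, reads were processed on mm39. Those notes name edgeR 4.0.16, Subread 2.1.1 with featureCounts, STAR 2.7.11 and SAMtools 1.22.1, without saying what each did. The annotation release, the strand setting and the handling of multiply matching reads are not given in the sources used here. Expression values came as a deposited table of estimated counts, of which 21.3% to 22.7% of those above 0 had a fraction of a read, and CPM, which the authors' columns give as the count over the column total.

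Counts were rounded to whole numbers and scaled by TMM factors (edgeR 4.0.16, R 4.3.3). Testing was limited to genes at 1 CPM or more in 3 or more of the 6 libraries, and used edgeR's two-sided quasi-likelihood test with Benjamini-Hochberg adjustment over all 13717 genes and a threshold of 0.05. Printed CPM are TMM-normalised unless called deposited. Standard errors were derived from the F statistic and intervals are 95% intervals. Nothing says which hearts came from separate litters, so p-values measure the spread between these 6 hearts. Libraries of the same group differed by more than sampling noise in all 6 pairs. Alternatives were DESeq2 1.42.0, DESeq2 size factors, library totals, limma-trend (limma 3.58.1) with pseudocounts 0.5 and 2, no filter, the replicate number as a block and each library left out. After seeing the data 2 more were added, mitochondrial rRNA share as a covariate and leaving out the 2 libraries that express Xist. The fit was tested on simulated data.

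The members and lists were chosen with earlier results of these data known. Full values were given for members with an unadjusted p below 0.05, groups that did not overlap, or an absolute log2 fold change of at least 0.5. Further genes were named at an unadjusted p below 0.05 or where the groups did not overlap. Of the latter, Sqstm1 and Pgd were picked for full values after these were seen. Promoter windows came from RefSeq (GRCm38.p6), lengths and selenocysteine marks from GENCODE M21 by gene ID.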

Additional observations from a re-analysis of the deposited data

How the results depend on the processing

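Over the 15 alternatives, members past the adjusted threshold numbered 0 in all but the fit without a filter on low values, which called 1, Mt2 (edgeR adjusted p = 0.0061, and 0.16 to 0.9995 in the other settings), among 133 of 33251 genes. All tested genes past the threshold numbered 0 with all libraries in edgeR (705 at an unadjusted p below 0.05), 0 in limma-trend, 15 in DESeq2, 9 with mitochondrial rRNA share as a covariate, 5 without the libraries that express Xist, and 0 to 3 with single libraries left out. Ybx1 passed in DESeq2 (log2 fold change -2.41), with the covariate (-2.21), without the filter (-2.38), without the libraries that express Xist (-2.19) and, among fits with a library left out (-2.60 to -2.19), without knockout heart 3.

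The median of the tested members was 0.11 with the covariate, 0.14 without the libraries that express Xist and 0.14 to 0.44 with single libraries left out. Members above 0 numbered 27 to 36 over all the alternatives, where 46.8% to 67.1% of all tested genes lay above 0. Members whose groups do not overlap numbered 5 with library totals (Cat, Gclm, G6pdx, Gpx1 and Gpx4). They numbered 13 without the libraries that express Xist and 10 to 15 with single libraries left out, where fewer hearts make separation easier. The shares of all tested genes under these settings are not given here, so these counts cannot be set against that of the main fit. The glutathione transferase median turned to -0.055 with the covariate and -0.028 without the libraries that express Xist, Mgst3 to -0.047 with the covariate, and the NRF2 median to -0.0021 without the filter, which adds Hmox1. The causes were not tested.

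The deviations of same-numbered hearts from their group means had correlations of -0.11, 0.45 and 0.56 over 13717 genes. Differently numbered hearts had correlations of -0.68 to 0.56. With so few hearts these values cannot decide whether the numbers pair the hearts. With the replicate block 5 genes passed, Ybx1 (-2.44) and 0 members among them. With 3 hearts a group, intervals as wide as that of Gclc (-0.50 to 0.59) do not exclude differences inside them.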
